A study of Rattus norvegicus and Mus musculus with 17 samples.

Results

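The comparison set Morris hepatoma tissue against regenerating rat liver, over the genes that both deposited rat tables hold. A gene was a member when its GeneID stood in the hepatoma table and also in the regeneration table. There were 1752 such genes among the 14072 genes of the 3 tables of the series, which cover mouse and rat. They made up 19.3% of the 9082 genes of the hepatoma table and 83.7% of the 2093 genes of the regeneration table. Both tables were limited to genes whose deposited p-value against the same control livers was under 0.05, the highest being 0.0493 and 0.04997. Membership therefore already meant a difference from control liver in both settings, and the contrasts with control are given below as description only. The tests below are of the direct contrast between tumour and regrowing liver. For members on the same side of control in both settings, membership left the direction of that contrast open. For members on opposite sides of control it fixed the direction, and their tests do not bear on it.

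All animals were male rats of the ACI strain. For the hepatoma group (n = 4 libraries), 1000000 cells of the line MH3924a, a transplantable Morris hepatoma, were placed in the liver of rats aged 10 weeks, and the tumours were collected 2 weeks afterwards. All 4 tumours thus come from 1 cell line, and a tumour sample also holds cells of the host. Regenerating liver (n = 4) was collected 24 hours after partial hepatectomy, the surgical removal of most of the liver, from rats aged 10 to 12 weeks. Control liver (n = 3) came from untreated rats of matching age. No label ties a library to a separate animal, and the p-values therefore measure only how these libraries vary, which may be technical.

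After partial hepatectomy the remaining hepatocytes, which are normally at rest, leave quiescence, copy their DNA and divide until liver mass is restored, while the organ goes on making plasma proteins and clearing metabolites. Cells of a transplanted hepatoma divide without such an end point. Division needs the licensing and copying of DNA in S phase, driven by the factors of the E2F family, and then the spindle, kinetochore and checkpoint proteins of mitosis, whose genes are switched on later in the cycle. Cyclins and cyclin-dependent kinases time both steps.

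Values are RPKM, read counts scaled to transcript length and library size, so levels of different genes can be compared per length. Depth was known only relative to the first control library and ranged from 1.02 to 1.18 in the other 10 libraries. The median member stood at 17.1 to 21.9 RPKM in the hepatoma libraries, at 5.50 to 6.68 in the regenerating ones and at 3.31 to 3.35 in control liver. The hepatoma libraries differed in liver-specific RNA. Of 31 hepatocyte marker genes, 26 were listed in the hepatoma table, and their RPKM summed to 1294 and 98.7 in hepatoma libraries 1 and 2 but to 26901 and 22600 in libraries 3 and 4, against 99532 to 144156 in control liver. Hnf4a had no reads in hepatoma library 2, and the other 25 markers had reads in all 4 tumours. Alb, serum albumin, stood at 574, 19.001, 10944 and 10924 RPKM in hepatoma libraries 1 to 4 and at 48190 to 67213 in control liver. The regeneration table listed 2 of the 31, G6pc1 and F9, which were also members, so that its libraries could not be checked on the rest. Markers of other cells summed higher in tumour than in control: 10 listed stellate and fibroblast markers summed to 865 to 1988 RPKM against 64.1 to 183, 8 macrophage markers to 1758 to 2536 against 273 to 301, and 8 endothelial markers to 258 to 347 against 27.2 to 49.7. Most of the macrophage sum came from Lyz2, Lgals3 and Fcer1g, and Clec4f, a marker of the Kupffer cells of the liver, went the other way, at 6.39, 6.02, 26.8 and 24.96 RPKM in hepatoma libraries 1 to 4 against 70.2 to 91.9 in control. The 2 listed cholangiocyte markers summed to 196 to 277 against 5.13 to 9.60, the 5 of T and NK cells to 11.2 to 25.2 against 3.40 to 5.60, the 1 of neutrophils stood at 8.90 to 19.6 against 0.524 to 1.81, the 2 of B cells summed to 0.361 to 2.09 against 1.97 to 2.55, and no erythroid marker was listed. In bulk tissue, fewer cells of a type and less RNA per cell cannot be told apart. Counts that moved by over 1.5 times without hepatoma libraries 1 and 2, or without 3 and 4, are given below with both values.

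Most members were more abundant in the tumour. The test was limma on log2(RPKM + 1), two-sided, 4 libraries against 4, and a gene counted as called at a Benjamini-Hochberg adjusted p under 0.05. Of the 1752 members 1673 reached at least 1 RPKM in 4 of the 8 libraries and were tested. A gene with all 4 libraries of 1 group under 1 RPKM was tested only if all 4 of the other group reached it. In such genes the filter fixed the direction and the lack of overlap. They include Tspan8, Kcnn4, Sox7, Etv4, Igf1r, Pfkm and Bcl2l11 through the tumours, and Aldh1b1, Abcg5 and Abcg8 through regenerating liver. Hepatoma was higher in 1352 of them (80.8% of the tested members) and lower in 67 (4.005%), and 254 were not called. A difference of at least 2-fold on that scale was called in 1207 genes (72.1%), 1147 of them higher and 60 lower in the tumour. The median log2 difference of all tested members was 1.47, and changes are read below against that median. All 4 tumour libraries lay above all 4 regenerating ones in 1414 genes (84.5%) and below them in 99 (5.92%).

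This excess depends on how libraries are scaled. When each library was centred on its own median over the tested members, 445 genes were higher in hepatoma (26.6%) and 482 lower (28.8%). With quantile normalization the counts were 495 (29.6%) and 433 (25.9%). Both scalings make the libraries alike over the tested members, of which 1561 were over control in hepatoma and 112 under it. A near-even split of calls therefore follows from these scalings. They cannot tell whether the excess on the deposited values is a matter of scale. Under all 3 scalings 443 genes were higher (26.5%) and 67 were lower (4.005%). Median centring moved every difference down, so a lower call kept under it adds no support. Of the genes called higher on the deposited values, 208 were called lower after median centring. Since the members were listed for their contrast with control, these counts describe the listed genes and not the whole transcriptome. The plot of group means shows the cloud of members above the line of equal level.

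**Figure D1:**
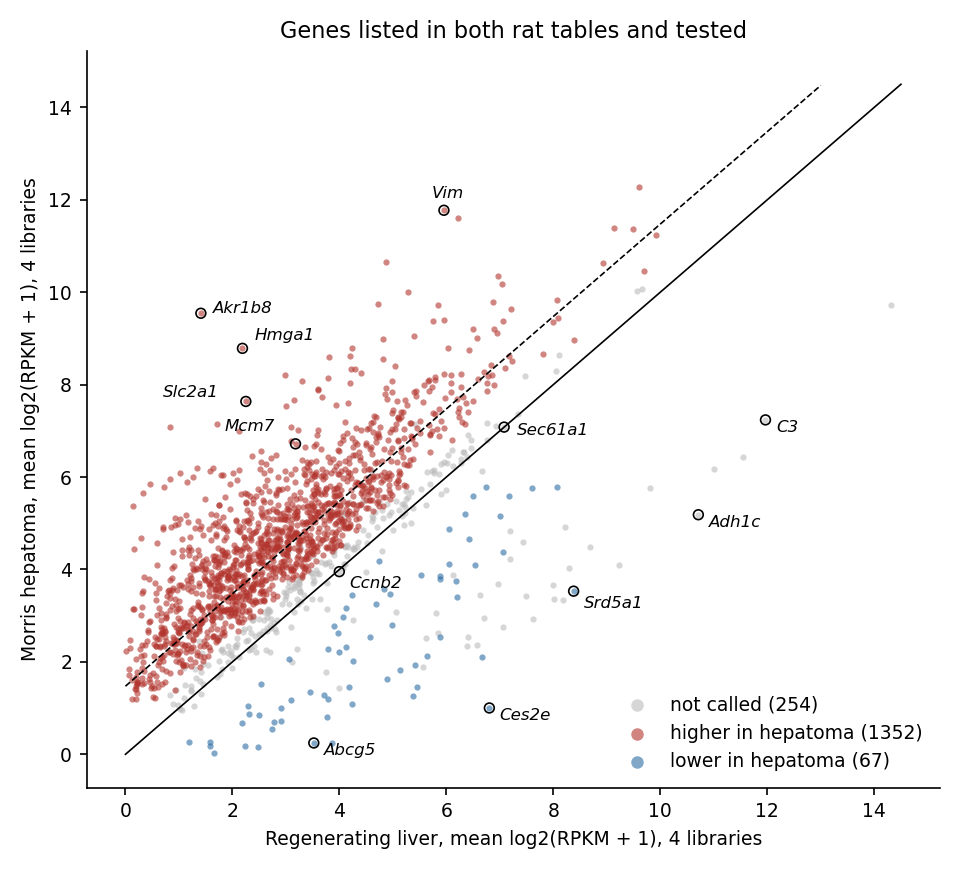
Mean log2(RPKM + 1) of the 4 regenerating libraries (horizontal axis) and of the 4 hepatoma libraries (vertical axis) for the 1673 tested members, coloured by call. The solid line marks equal level and the dashed line the median difference of 1.47. Most points lie above the solid line, and the 67 genes called lower lie under it.

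By their direction against control, 1594 members were higher in both settings and 38 lower in both. Another 31 were higher in hepatoma and lower in regeneration, and 89 were lower in hepatoma and higher in regeneration. Among the genes higher in both, 1538 were tested, 1330 were higher in hepatoma and 1 was lower. The exception was Dhdds, which makes the dolichol used in protein glycosylation. It stood at 16.7, 16.4, 20.2 and 15.7 RPKM in hepatoma libraries 1 to 4 and at 23.7, 25.8, 29.9 and 23.4 in regenerating libraries 1 to 4, so that the groups did not overlap. Its log2 difference was -0.55 ± 0.15 (SE, adjusted p = 0.0370). The Dhdds call was kept without hepatoma library 3 or regenerating library 4 and was lost without hepatoma library 1 (0.104), 2 (0.0711) or 4 (0.160) or regenerating library 1 (0.0751), 2 (0.130) or 3 (0.223). Dhdds was named after its values were seen.

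Among the lists of cell cycle genes, the one of DNA replication had the largest median difference. All 27 tested members of the replication list were higher in hepatoma, beside 80.8% of all tested members, with a median log2 difference of 2.51 against 1.47. After median centring 17 of the 27 were still called higher and none lower, and with quantile normalization 18. The minichromosome maintenance genes encode the helicase that opens DNA at licensed origins, and Mcm2, Mcm3, Mcm5, Mcm6 and Mcm7 were members. Mcm7 stood at 124, 141, 75.6 and 89.1 RPKM in the tumours and at 6.77, 9.53, 5.89 and 10.97 in regenerating liver, against 3.43, 3.28 and 3.16 in control liver. Its mean was 12.98 times the regenerating mean, with a log2 difference of 3.54 ± 0.23 (SE, adjusted p = 1.00e-07). The regenerating libraries lay close above control for this gene, while every tumour lay far above both. Among the other Mcm genes, Mcm3 had the largest difference, with 47.9 ± 9.51 RPKM (SD, n = 4) against 4.68 ± 1.94 and a log2 difference of 3.15 ± 0.24. Mcm5 had the smallest difference of the 5, 2.31 ± 0.21.

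Other parts of the replication machinery were also higher in the tumour, without overlap between the groups. Pold2, a subunit of DNA polymerase delta, which extends the new strand, had 77.2, 85.2, 50.9 and 60.3 RPKM in hepatoma and 4.02, 5.20, 3.48 and 8.29 in regenerating liver, a log2 difference of 3.50 ± 0.23. Prim1, the primase that starts each fragment, had 71.1 ± 22.1 against 7.30 ± 2.85 RPKM. Dnmt1, which copies DNA methylation onto the new strand, had 50.8, 50.9, 35.1 and 38.1 against 3.38, 3.79, 3.24 and 4.93 RPKM. For Dnmt1 the regenerating mean was 2.42 times the control mean and the tumour mean 27.6 times. Uhrf1, the partner that guides Dnmt1 to new DNA, had 20.99 ± 5.04 RPKM in hepatoma and 1.66 ± 0.847 in regenerating liver. At the lower end of the list, Gins1, part of the moving helicase, had 10.5, 17.8, 10.8 and 9.70 against 3.42, 5.61, 2.80 and 6.21 RPKM (log2 difference 1.27 ± 0.24), and Pole, the leading strand polymerase, had 4.63 ± 0.717 against 1.44 ± 0.567. Both Gins1 and Pole changed sign after median centring, to -0.27 and -0.32, without a call.

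Genes of mitosis stood further above control in regenerating liver than those of replication. Of 39 tested members of the spindle, kinetochore and checkpoint list 31 were higher in hepatoma and none lower. Beside them, 80.8% of all tested members were higher and 4.005% lower, so the share called higher was near that of all. The median log2 difference was 1.80, against 1.47 over all tested members. After median centring 5 were higher and 3 lower, beside 26.6% and 28.8% of all tested members. With quantile normalization 6 were higher and 3 lower, beside 29.6% and 25.9%. Leaving out 1 library at a time gave 27 to 35 higher. The median spindle gene stood at 45.8 times control in hepatoma and 12.3 times control in regenerating liver, while the median replication gene stood at 30.4 times and 3.57 times. These ratios share the control libraries, and the difference between the lists was not tested. Control library 3 lay above libraries 1 and 2 for both lists. The mean log2(RPKM + 1) in control libraries 1 to 3 was 0.630, 0.588 and 1.07 for the spindle list. For the replication list it was 0.788, 0.776 and 1.04.

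Kif23, a motor of the central spindle that is needed for the final cut between daughter cells, had the largest difference on the list. It stood at 30.5, 37.5, 29.04 and 24.6 RPKM in hepatoma and at 1.27, 3.10, 1.42 and 3.15 in regenerating liver, with 0.205, 0.0870 and 0.337 in control, and its log2 difference was 3.32 ± 0.22 (SE, adjusted p = 1.07e-07). Incenp, the scaffold of the chromosomal passenger complex, had 25.6 ± 4.71 against 2.37 ± 1.06 RPKM. Its partner kinase Aurkb had 39.4 ± 7.02 against 8.67 ± 4.39 RPKM, a log2 difference of 2.18 ± 0.32 (adjusted p = 0.00146). For all 3 genes the groups did not overlap. Plk1, the kinase that drives entry into mitosis, had 38.99, 59.3, 36.7 and 34.9 RPKM in the tumours and 5.84, 9.37, 3.45 and 12.6 in regenerating liver, a log2 difference of 2.39 ± 0.33. Foxm1, a transcription factor of mitotic genes, had 12.7 ± 2.42 against 3.36 ± 1.78 RPKM, with an adjusted p of 0.00127. Kif23 and Incenp were higher under all 3 scalings, while Aurkb, Plk1 and Foxm1 were not called after median centring or with quantile normalization.

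Top2a, the topoisomerase that untangles sister chromosomes, had 21.95, 25.01, 19.8 and 17.5 RPKM in hepatoma and 3.43, 9.81, 3.28 and 10.4 in regenerating liver (log2 difference 1.66 ± 0.34, adjusted p = 0.0164). The Top2a call was lost without hepatoma library 1 (0.0793), 2 (0.0719) or 3 (0.0826), and without both 3 and 4 (0.0720) or both 1 and 2 (0.133). Stmn1, which destabilises microtubules, had 309.8, 376, 135 and 231 against 60.5, 98.2, 49.99 and 115 RPKM (adjusted p = 0.0198). Its call was lost without hepatoma library 1 (0.0946), 2 (0.0688) or 4 (0.0571) or regenerating library 1 (0.0755), and without both hepatoma libraries 1 and 2 (0.163). In both genes the 2 groups did not overlap, and regenerating libraries 2 and 4 were nearest to the tumours.

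The spindle genes not called numbered 8: Cenpm, Pbk, Cenpw, Kif20a, Pttg1, Nusap1, Birc5 and Cdc20. Cdc20, the activator of the ligase that ends metaphase, had 70.5, 105, 55.8 and 56.6 RPKM in hepatoma and 18.8, 27.9, 11.6 and 48.01 in regenerating liver (log2 difference 1.53 ± 0.41, 95% interval 0.58 to 2.49, adjusted p = 0.0958). Without regenerating library 3 or 4 Cdc20 was called higher (adjusted p = 0.0496 and 0.00225). Birc5, an inhibitor of cell death that also serves in the passenger complex, had 24.6, 24.8, 14.8 and 16.8 against 5.36, 9.22, 3.59 and 14.4 RPKM (adjusted p = 0.0935, and 0.00271 without regenerating library 4). Regenerating library 4 lay nearest to the tumours for both genes. Pbk, a mitotic kinase, had 2.66, 5.90, 4.14 and 2.92 against 2.81, 9.27, 3.12 and 7.84 RPKM, and Cenpm, a kinetochore subunit, 18.02, 26.8, 18.9 and 18.04 against 24.5, 33.05, 19.6 and 31.95. For Pbk and Cenpm the groups overlapped and the regenerating mean was the higher one. Their 95% intervals, -1.21 to 0.46 and -0.80 to 0.02, reach from a lower to a slightly higher tumour level, so these data do not show equal levels. Pbk, Cenpm and Cenpw were called lower in hepatoma after median centring and with quantile normalization.

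Among the cyclins and their kinases 7 of 8 tested members were higher in hepatoma, beside 80.8% of all tested members, with a median log2 difference of 2.13 against 1.47. After median centring, and likewise with quantile normalization, 2 were higher, Ccnd2 and Cdk4, and 1 was lower. Ccnb2, a B-type cyclin of mitosis, was the member not called, with 13.2, 21.6, 13.8 and 11.1 RPKM in the tumours and 11.7, 17.7, 8.62 and 27.6 in regenerating liver. It stood at 0.429, 0.381 and 0.411 RPKM in control liver, so both settings lay far above control, by 36.7 and 40.3 times. Its log2 difference was -0.05 ± 0.33 (95% interval -0.80 to 0.71, adjusted p = 1.000), and the groups overlapped. Under both of the other scalings Ccnb2 was the member called lower. The related Ccnb1 had 117, 140.2, 85.8 and 81.6 RPKM in hepatoma and 15.9, 23.998, 8.44 and 40.4 in regenerating liver, with a log2 difference of 2.37 ± 0.44 (adjusted p = 0.0120). Here the groups did not overlap, although the call was lost without hepatoma library 1 (0.0559) or regenerating library 1 (0.0558). Control library 3 lay above the other controls for Ccnb1, at 0.320, 0.351 and 2.30 RPKM in libraries 1 to 3.

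Cdk1, the kinase that both B-type cyclins activate, had 106, 168, 97.1 and 114 against 18.1, 35.96, 15.1 and 40.7 RPKM (log2 difference 2.19 ± 0.32, adjusted p = 0.00126). Ccna2, the cyclin of S phase and G2, had 41.2, 68.2, 45.2 and 46.6 against 7.13, 16.6, 5.56 and 21.7 RPKM (log2 difference 2.06 ± 0.41, adjusted p = 0.0166). The Ccna2 call was lost without hepatoma library 2 (0.0573), 3 (0.0622) or 4 (0.0568), and without both 3 and 4 (0.0596) or both 1 and 2 (0.0515). For Cdk1 and Ccna2 the groups did not overlap. Under median centring and quantile normalization Cdk1, Ccna2, Ccnb1 and Ccnd1 were all not called, with adjusted p after centring of 0.799 for Cdk1. The D-type cyclins, which carry growth signals into the cycle, differed more from each other. Ccnd1 had 173, 180.4, 91.1 and 134 RPKM in hepatoma and 35.1, 30.6, 38.2 and 27.003 in regenerating liver, a log2 difference of 2.07 ± 0.21. Ccnd2 had 60.5, 85.3, 54.3 and 56.5 against 1.31, 1.59, 1.41 and 1.32 RPKM, a log2 difference of 4.74 ± 0.16 and the largest of the list. Regenerating liver stood at 3.27 times control for Ccnd1 and 2.43 times for Ccnd2, and hepatoma at 14.5 and 111 times. Their partner kinase Cdk4 had 275 ± 76.7 against 49.5 ± 5.38 RPKM, a log2 difference of 2.42 ± 0.19, and was higher under all 3 scalings, as was Ccnd2.

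The 4 regenerating libraries were not alike in their division genes. Libraries 2 and 4 both lay above libraries 1 and 3 in all 27 replication genes and in 38 of 39 spindle genes, beside 28.9% of all tested members. The median ratio of the higher to the lower pair was 1.80 for replication, 2.42 for the spindle list and 1.07 over all tested members. Hepatoma library 2 was the highest tumour in 36 of 39 spindle genes and 24 of 27 replication genes, beside 56.2% of all tested members. These splits were seen in the data and follow no label, and their part in the results was not tested. The plot of list levels shows both splits.

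**Figure D2:**
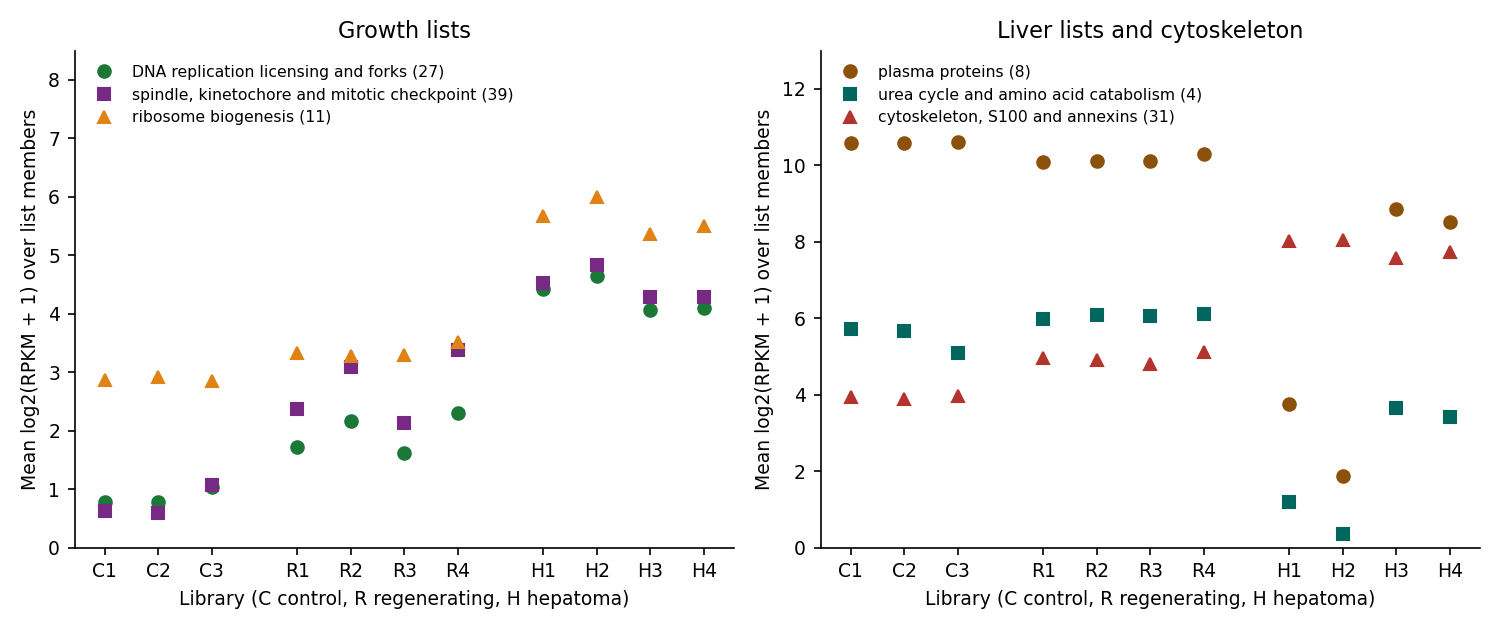
Mean log2(RPKM + 1) over the tested members of 6 gene lists in each library (C control, R regenerating, H hepatoma), with the number of genes in brackets. In the left panel regenerating libraries 2 and 4 lie above 1 and 3 for the spindle and replication lists, and in the right panel plasma protein and amino acid genes lie far lower in hepatoma libraries 1 and 2 than in 3 and 4.

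Promoter stretches of 5 division genes are printed as examples of short motifs near the starts of such genes. The 5 do not stand for their lists, whose shares with each motif are given after them. Each is the 150 bases before the annotated start, 5′ to 3′ on the strand of the gene, from RefSeq on build GRCr8. Capitals mark TTTGAA or TTTAAA, forms of the cell cycle genes homology region, CCAAT, the box bound by NF-Y, and TTTGGCGC, an E2F site, with matches on the other strand shown as their reverse complement. Ccnb1 (chr2:33655226-33655375, minus strand), Cdc20 (chr5:137255800-137255949, minus strand) and Top2a (chr10:84473094-84473243, minus strand) act in mitosis. Mcm6 (chr13:42404353-42404502, minus strand) and Gins1 (chr3:160184770-160184919, plus strand) act in replication.
Ccnb1: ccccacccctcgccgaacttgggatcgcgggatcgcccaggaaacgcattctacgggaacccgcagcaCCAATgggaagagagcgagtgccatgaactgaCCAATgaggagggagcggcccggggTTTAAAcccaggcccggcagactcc
Cdc20: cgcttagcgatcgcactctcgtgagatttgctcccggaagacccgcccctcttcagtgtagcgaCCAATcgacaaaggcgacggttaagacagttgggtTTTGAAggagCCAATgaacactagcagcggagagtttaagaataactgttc
Top2a: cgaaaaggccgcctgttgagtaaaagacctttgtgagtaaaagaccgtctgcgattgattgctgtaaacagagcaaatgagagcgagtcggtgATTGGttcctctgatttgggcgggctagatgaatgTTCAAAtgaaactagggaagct
Mcm6: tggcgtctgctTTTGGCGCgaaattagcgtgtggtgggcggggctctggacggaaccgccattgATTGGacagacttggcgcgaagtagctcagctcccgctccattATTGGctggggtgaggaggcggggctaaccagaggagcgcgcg
Gins1: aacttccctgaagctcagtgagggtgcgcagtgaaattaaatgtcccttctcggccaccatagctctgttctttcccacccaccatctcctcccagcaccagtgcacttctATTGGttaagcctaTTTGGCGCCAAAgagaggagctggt
Cdc20 carries TTTGAA 51 bases before the start between CCAAT boxes at 86 and 41 bases, and Top2a carries TTTGAA at 22 bases on the other strand. Mcm6 carries TTTGGCGC at 139 bases. In Gins1 TTTGGCGC begins 25 bases before the start and overlaps a copy on the other strand.

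Over windows of 300 bases around each start, searched on both strands, TTTGAA was found in 22 of 32 spindle gene promoters (68.8%) and in 3 of 27 replication gene promoters (11.1%), beside 18.1% of all 27457 promoters. CCAAT was found in 22 of 32 (68.8%) and 17 of 27 (63.0%), beside 37.8% of all. Both TTTGAA and CCAAT stood in 16 of 32 spindle promoters (50%), beside 7.28% of all. TTTGGCGC was found in 7 of 27 replication promoters (25.9%) and in 1 of 32 spindle promoters (3.13%), beside 0.524% of all. GGCGGGAA, another E2F site form, was found in 4 of 27 (14.8%) and 2 of 32 (6.25%), beside 2.01% of all. TTTAAA was found in 9 of 32 and 1 of 27, beside 13.5% of all. A match describes the letters of the window and no binding was measured here.

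Genes that supply nucleotides to replication were split. Of 12 tested members 7 were higher in hepatoma, 1 was lower, and Rrm2, Dut, Dtymk and Tk1 were not called, with a median log2 difference of 1.70. The share called higher lay under the 80.8% of all tested members, and under both other scalings 4 were higher and 3, Tk1, Dtymk and Shmt1, lower. Impdh1, the enzyme that commits purines to guanine nucleotides, had 40.7, 48.6, 36.5 and 38.6 RPKM in hepatoma and 2.89, 2.03, 1.72 and 2.91 in regenerating liver, a log2 difference of 3.65 ± 0.16. Cad, which starts pyrimidine synthesis, had 32.8 ± 6.02 against 3.23 ± 0.589 RPKM. Both stood at low and even levels across regenerating liver. The subunits of ribonucleotide reductase, which makes deoxynucleotides, differed in their call. Rrm1 had 85.7, 88.5, 57.8 and 49.8 against 8.86, 15.1, 5.95 and 16.7 RPKM (log2 difference 2.55 ± 0.32, adjusted p = 3.58e-04). Rrm2 had 141, 198, 130.4 and 108 against 29.9, 74.5, 19.7 and 66.5 RPKM (log2 difference 1.74 ± 0.43, adjusted p = 0.0625), and was called without regenerating library 2 (0.0119) or 3 (0.0172). Tk1, thymidine kinase, had 30.6, 61.7, 45.2 and 36.1 against 30.6, 43.6, 25.9 and 48.5 RPKM, overlapping groups and a 95% interval of -0.31 to 0.74. Shmt1, which passes carbon units from serine, was lower in hepatoma at 9.75, 12.2, 16.3 and 14.3 against 56.3, 54.8, 64.5 and 58.1 RPKM (log2 difference -2.09 ± 0.17, adjusted p = 3.28e-07).

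Most DNA repair and chromatin genes were higher in hepatoma on the deposited values. Of 10 tested repair genes 9 were higher in hepatoma and of 11 histone and chromatin genes 10 were higher, with median log2 differences of 1.90 and 2.22, beside 80.8% and 1.47 for all tested members. After median centring 1 repair gene was higher and 1 lower, and 5 chromatin genes were higher and 1 lower. With quantile normalization the repair counts were equal to these and 5 chromatin genes were higher and none lower. Ezh2, the methyltransferase of the Polycomb complex, had 35.6, 45.6, 26.6 and 30.9 RPKM in the tumours and 1.27, 3.57, 2.22 and 3.65 in regenerating liver, a log2 difference of 3.31 ± 0.24 (adjusted p = 3.79e-07). Hmga1, an architectural chromatin protein common in embryonic and tumour cells, had 566, 419, 292 and 541 against 3.02, 3.60, 4.36 and 3.35 RPKM and 1.19, 1.88 and 1.61 in control liver. The Hmga1 mean was 127 times the regenerating mean (log2 difference 6.60 ± 0.20, adjusted p = 1.11e-10), while regeneration stood at 2.30 times control. Every tumour lay above every regenerating library in Ezh2 and Hmga1. The uncalled members of the 2 lists were Ung, which removes uracil from DNA, and the nucleosome-binding Hmgn2, with log2 differences of 0.48 and 0.71, and both were called lower after median centring. Cdkn3, a phosphatase of cyclin-dependent kinases, stood at 8.25, 10.1, 6.45 and 7.25 RPKM in hepatoma and 11.9, 14.2, 6.86 and 20.9 in regenerating liver, overlapping, with an adjusted p of 0.730 that became 0.0140 without regenerating library 3, and it was called lower under both other scalings.

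Genes with known ties to liver tumours had the highest median difference of all lists on the deposited values. All 4 tested members of the oncofetal and tumour marker list were higher in hepatoma under all 3 scalings, beside 26.5% of all tested members. On the deposited values their median log2 difference was 5.48, against 1.47 over all tested members. Akr1b8, an aldo-keto reductase related to the human tumour marker AKR1B10, had 807, 938, 553 and 738 RPKM in hepatoma, 1.29, 1.89, 1.20 and 2.43 in regenerating liver and 0.537, 0.233 and 0.761 in control liver. Its log2 difference of 8.13 ± 0.20 (SE, adjusted p = 1.49e-11) was the largest of all tested members. Tspan8, a membrane tetraspanin, had 206, 150.4, 59.7 and 172 against 0.806, 0.842, 0.633 and 0.850 RPKM (log2 difference 6.24 ± 0.34). Tspan8 passed the filter only through the tumours, which fixed its direction and lack of overlap on the deposited values in advance. Its place among the 4 higher members is therefore no support. The galectins Lgals1 and Lgals3, which bind cell surface sugars, had 1130 ± 582 against 40.3 ± 16.3 and 686 ± 115 against 62.1 ± 11.6 RPKM. Lgals3 is also a macrophage marker. The 7 listed macrophage markers other than Lgals3 summed to 933, 1868, 1352 and 1068 RPKM in hepatoma libraries 1 to 4 and 258, 278 and 248 in control, and their part in the value was not tested. Igf2, the fetal growth factor, was too low to be tested, at 0.504, 0.474, 0.370 and 0.889 RPKM in hepatoma and 0.0279, 0.0632, 0.0185 and 0.0121 in regenerating liver.

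Immediate early genes answer growth signals within minutes, and several of them report the activity of the ERK pathway. That activity was not measured here, and regenerating liver was collected 24 hours after surgery. Of 28 genes on the immediate early list 5 were members and tested. All 5 were higher in hepatoma, beside 80.8% of all tested members, with a median log2 difference of 3.15 against 1.47. After median centring 3 were higher, beside 26.6% of all tested members. Jun and Socs3 were then not called, with Socs3 at -0.16. Dusp6, the phosphatase that ERK signalling induces against itself, had 556, 438, 256 and 389.6 RPKM in hepatoma and 20.2, 15.2, 12.6 and 22.9 in regenerating liver, with 4.19, 3.17 and 10.7 in control (log2 difference 4.44 ± 0.24, adjusted p = 3.19e-08). Its relative Dusp5 had 88.5 ± 20.8 against 4.22 ± 0.998 RPKM. Etv4, an ETS transcription factor, was not among the 5 and passed the filter only through the tumours. It had 49.2, 49.4, 26.8 and 39.8 against 0.0861, 0.0732, 0.107 and 0.152 RPKM, a log2 difference of 5.22 ± 0.19. Jun, a subunit of AP-1, had 31.8, 45.3, 53.7 and 72.8 against 16.1, 13.3, 16.5 and 14.1 RPKM, a log2 difference of 1.64 ± 0.21. Socs3, the brake on interleukin-6 signalling, had 22.1, 45.2, 47.4 and 57.9 against 22.8, 18.7, 12.97 and 9.16 RPKM and overlapping groups. Its adjusted p of 0.0448 became 0.177, 0.222 or 0.125 without hepatoma library 2, 3 or 4, and 0.0670, 0.160 or 0.0838 without regenerating library 2, 3 or 4.

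Among growth factors and receptors 5 of 7 tested members were higher in hepatoma, under the 80.8% of all tested members. After median centring 2 were higher, Igf1r and Fgfr1, and Tnfrsf1a was lower, and with quantile normalization 3 were higher and 1 lower. Igf1r, the receptor for insulin-like growth factors, had 11.3, 8.99, 5.13 and 7.28 RPKM in the tumours and 0.0962, 0.109, 0.0826 and 0.127 in regenerating liver, with 0.0505, 0.0247 and 0.0555 in control liver. Both liver groups lay at a small part of 1 RPKM, and every tumour lay far above them (log2 difference 3.01 ± 0.18, adjusted p = 2.99e-08). Igf1r passed the filter only through the tumours, which fixed its direction and lack of overlap in advance. Fgfr1, a fibroblast growth factor receptor, had 28.9 ± 5.61 against 1.63 ± 0.307 RPKM, and Tgfb1, which arrests hepatocytes and activates matrix cells, 51.3 ± 12.4 against 14.1 ± 2.89, the latter not called under either of the other scalings. Tnfrsf1a, the receptor for tumour necrosis factor, overlapped between the groups at 61.1, 90.7, 86.03 and 101 against 79.3, 73.2, 83.3 and 71.4 RPKM (95% interval -0.25 to 0.49). Igfbp2, which binds insulin-like growth factors, had 0.0638, 2.37, 11.8 and 11.3 RPKM in hepatoma libraries 1 to 4 and 11.8, 9.83, 6.50 and 5.86 in regenerating liver. It was not called with all libraries and was called lower without hepatoma libraries 3 and 4, and its tumour levels split into a lower pair, libraries 1 and 2, and a higher pair within or near the regenerating range.

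Of 29 genes on the list of glucose uptake and glycolysis only 4 were members, so the list does not describe the pathway. All 4 were tested and higher in hepatoma, beside 80.8% of all tested members. Their median log2 difference was 3.38, against 1.47 over all tested members. Slc2a1, the glucose transporter GLUT1 of growing cells, had 234, 176, 165 and 226 RPKM in hepatoma, 3.10, 3.78, 4.17 and 4.07 in regenerating liver and 2.85, 2.95 and 2.20 in control. Regenerating liver lay close to control for Slc2a1, at 1.42 times, and hepatoma at 75.1 times, with a log2 difference of 5.38 ± 0.16 between them (adjusted p = 1.11e-10). Hk1, the first kinase of glycolysis outside the hepatocyte, had 45.96 ± 10.97 against 1.82 ± 0.248 RPKM, and Pfkm, a phosphofructokinase, 11.7 ± 4.51 against 0.850 ± 0.154. Taldo1, of the pentose phosphate pathway, had 168 ± 28.5 against 52.8 ± 0.841 RPKM and was not called after median centring. All 4 glucose genes were without overlap between the groups, which the filter required for Pfkm. Aldh18a1, which makes proline from glutamate, had 29.8, 43.6, 22.7 and 24.7 against 0.515, 0.930, 0.658 and 1.13 RPKM, a log2 difference of 4.08 ± 0.20. Scd2, a fatty acid desaturase, had 167, 259, 59.8 and 150.2 against 2.63, 2.25, 2.43 and 1.88 RPKM, a log2 difference of 5.43 ± 0.39.

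Cytoskeletal genes were higher in hepatoma in 28 of 31 tested members, beside 80.8% of all tested members. Of these, 23 were also higher after median centring, where 2 members were lower, beside 26.6% and 28.8% of all tested members. On the deposited values the median log2 difference was 2.82, against 1.47 over all tested members. Vim, the intermediate filament vimentin of mesenchymal and dedifferentiated cells, had 4798, 4223, 1997 and 3701 RPKM in hepatoma, 67.2, 56.1, 51.8 and 70.9 in regenerating liver and 18.5, 14.3 and 36.6 in control. The Vim mean was 59.8 times the regenerating mean (log2 difference 5.82 ± 0.25, adjusted p = 3.15e-09). S100a11, a calcium-binding protein, had 1589, 1601, 1614 and 1646 against 23.8, 30.6, 21.9 and 40.4 RPKM, nearly even across the tumours. For both genes the lowest tumour lay far above the highest regenerating library. Crip1, a small LIM protein, had 3370, 5338, 1663 and 3219 against 89.1, 61.8, 78.3 and 68.9 RPKM, with hepatoma library 3 the lowest tumour. Flna, which links actin filaments to the membrane, had 194 ± 70.7 against 7.07 ± 1.46 RPKM, and Actb, cytoplasmic actin, 5056 ± 1174 against 784 ± 159. Tuba1a, an alpha tubulin, had 315 ± 131 against 7.02 ± 1.53 RPKM. Not called were Anxa6, Anxa11 and Myh9, of which both annexins were called lower after centring. Anxa6, a membrane-binding annexin, stood at 89.7, 119, 77.6 and 88.6 against 94.5, 66.3, 82.8 and 77.9 RPKM with overlapping groups (95% interval -0.16 to 0.58).

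Of 45 genes on the matrix list 12 were members and tested. All 12 were higher in hepatoma, beside 80.8% of all tested members. After median centring 7 of them were higher, beside 26.6%. On the deposited values the median log2 difference was 2.67, against 1.47 over all tested members. Col1a1, a chain of type I collagen, had 135, 351, 164 and 218 RPKM in hepatoma, 7.72, 7.39, 5.68 and 11.5 in regenerating liver and 1.70, 0.471 and 2.78 in control, a log2 difference of 4.53 ± 0.29. Col3a1 had 129, 389.9, 152 and 196 against 53.02, 55.02, 41.2 and 39.1 RPKM. Hepatoma library 2 had the highest level of both collagens. Col1a1, Col1a2 and Col3a1 are also 3 of the fibroblast markers, and the other 7 listed markers summed to 509, 1035, 850.3 and 717 RPKM in hepatoma libraries 1 to 4 and 60.3, 46.8 and 137 in control. Of these 7, Sparc and Lum were highest in library 2, Acta2, Des, Dcn and Tagln in library 3 and Postn in library 4, and the part of host fibroblasts in the matrix values was not tested. Lamc1, a laminin chain of basement membrane, had 117, 76.3, 52.9 and 71.9 against 4.72, 4.70, 4.88 and 6.57 RPKM and its lowest tumour level in library 3. The collagens, by contrast, were lowest in library 1. The plot of single genes by library shows how even most of these contrasts were.

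**Figure D3:**
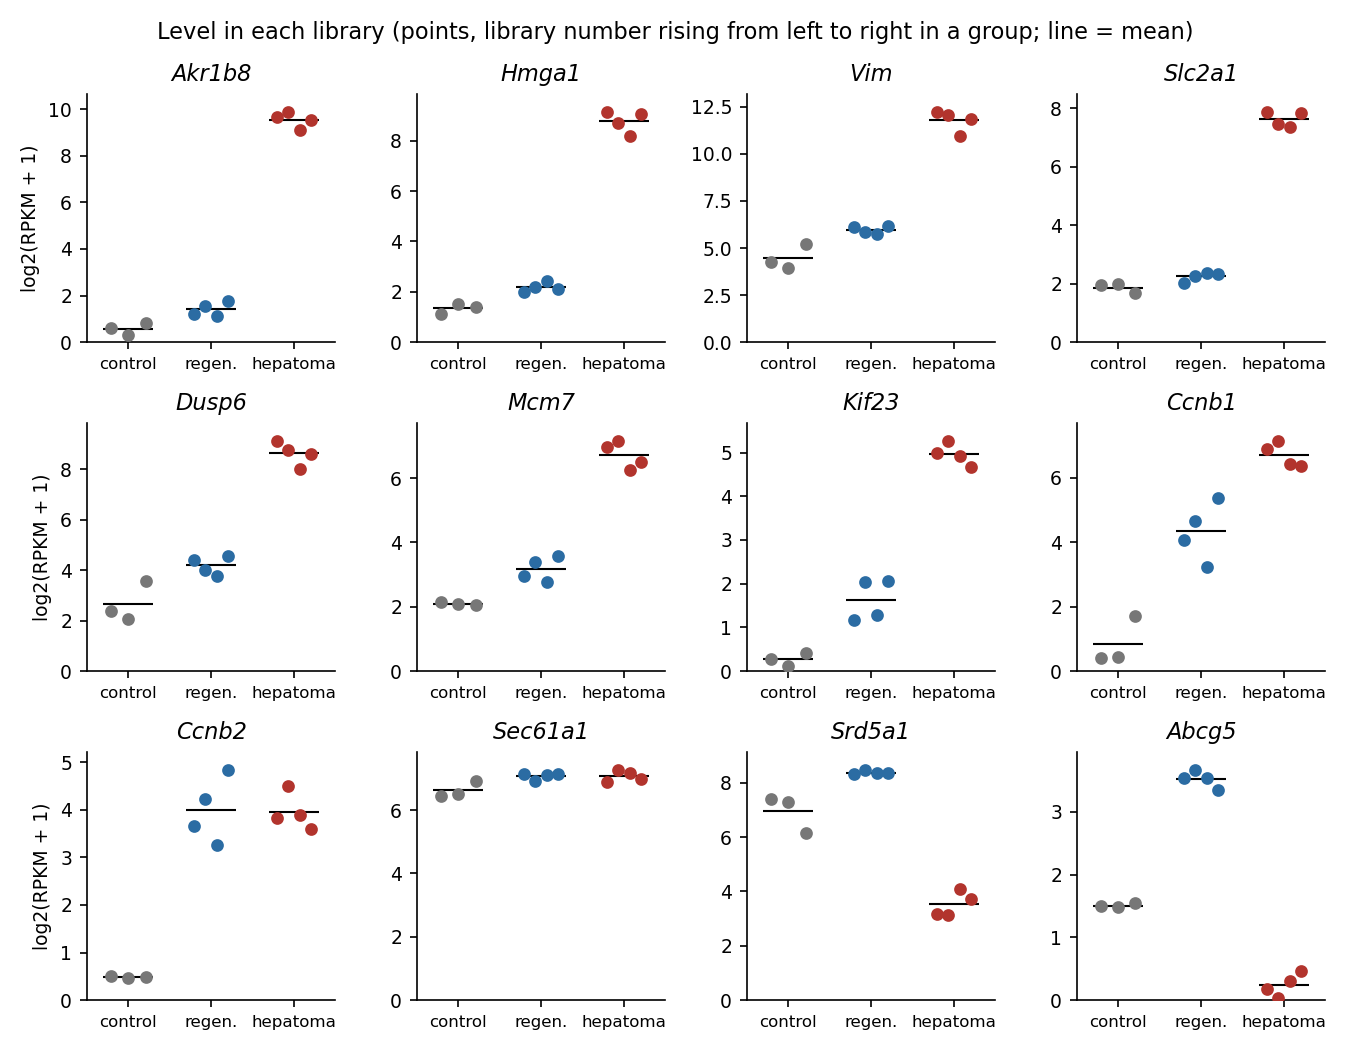
Level of 12 genes as log2(RPKM + 1) in each of 3 control, 4 regenerating and 4 hepatoma libraries, with a line at each group mean. Tumours lie far above both liver groups for Akr1b8, Hmga1, Vim and Slc2a1, overlap regenerating liver for Ccnb2 and Sec61a1, and lie below it for Srd5a1 and Abcg5.

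Genes of protein synthesis and handling were mostly called higher in the tumour, as were 80.8% of all tested members. All 11 tested ribosome biogenesis genes, 14 of 16 translation factors and tRNA synthetases (not Tars1 and Aars1), 5 of 5 splicing factors, 7 of 7 nuclear transport genes and 13 of 14 proteasome and folding genes (not Calr) were called higher. Their median log2 differences were 2.33, 2.25, 2.05, 1.65 and 1.32, against 1.47 over all tested members. The proteasome and folding median thus lay under that of all tested members. After median centring 6, 10, 2, 2 and 4 were higher, beside 26.6% of all tested members, and 2 translation genes (Tars1 and Aars1) and 2 of the proteasome and folding list (Calr and Psmb4) were lower. Rrp9, which processes ribosomal RNA, had 36.3, 49.8, 32.03 and 38.2 RPKM in hepatoma and 3.01, 2.24, 3.18 and 3.14 in regenerating liver, and Fbl, the methylase of the nucleolus, 146 ± 38.9 against 23.5 ± 4.38. Regenerating liver stood at 1.38 times control for the median ribosome biogenesis gene and the tumours at 7.73 times. Polr1a, the large subunit of RNA polymerase I, had 15.9 ± 2.93 against 2.32 ± 0.282 RPKM. Hspa8, a constitutive chaperone, had 2707 ± 759 against 721 ± 74.7 RPKM.

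Most of the 67 lower members lay on opposite sides of control liver. Of the 86 tested genes that were under control in hepatoma and over control in regenerating liver, 64 were lower in hepatoma and 22 were not called, with a median log2 difference of -2.24. The direction in these genes follows from their sides of control, which membership fixed, and the counts are given as description. Every gene called lower on the deposited values was of this kind, except Dhdds, Cyp4v3 and Wbp1l. The adjusted p-values of such genes do not bear on their direction. The same holds where such genes enter the counts of lower members of a list. Srd5a1, the steroid 5-alpha-reductase, had 7.98, 7.74, 16.2 and 12.2 RPKM in hepatoma, 318, 355, 332 and 324 in regenerating liver and 168, 154 and 70.2 in control. Regenerating liver was 30.1 times the tumour mean for Srd5a1 (log2 difference -4.85 ± 0.21, adjusted p = 1.93e-09). Ces2e, a carboxylesterase, had 0.939, no reads, 1.86 and 1.90 against 104, 117, 109 and 113 RPKM, and its log2 difference of -5.80 ± 0.31 was the lowest among called members. Neither gene had a tumour near the liver range. Aldh1b1, a mitochondrial aldehyde dehydrogenase, had 0.151, 0.0492, 0.354 and 0.223 against 14.4, 16.9, 17.2 and 7.96 RPKM. Control liver had 5.84, 3.36 and 0.973 RPKM of Aldh1b1, so that every tumour lay under every liver library.

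The sterol transporters showed a like contrast. Abcg5 and Abcg8 form the pump that sends plant sterols and cholesterol into bile. Abcg5 had 0.136, 0.0221, 0.236 and 0.378 RPKM in hepatoma and 10.7, 11.7, 10.6 and 9.15 in regenerating liver (log2 difference -3.28 ± 0.14, adjusted p = 2.05e-09), with 1.82, 1.79 and 1.91 in control. Abcg8 had no reads in hepatoma libraries 1 and 2 and 0.0302 and 0.0362 RPKM in libraries 3 and 4, against 1.999, 2.40, 1.84 and 2.46 in regenerating liver. Both stood above control in regenerating liver, at 5.71 and 4.61 times. Nr1h3, the sterol-sensing nuclear receptor LXR alpha, had 17.95 ± 9.47 against 92.3 ± 9.33 RPKM (log2 difference -2.43 ± 0.31), and its partner Rxra 14.97 ± 7.68 against 58.3 ± 10.7 (-2.01 ± 0.32). Both were on opposite sides of control in the 2 settings, so membership fixed their direction. They were called lower under all 3 scalings, as were all 67 genes called lower on the deposited values. Of the 6 tested members of the cholesterol synthesis and uptake list, 2 were higher in hepatoma and 1 lower. Beside them, 80.8% and 4.005% of all tested members were called so. After median centring and with quantile normalization none of the 6 was higher and 4 were lower. Leaving out 1 library at a time gave none to 3 higher, and none without hepatoma library 1 or 4 or regenerating library 1, 2 or 3. None was higher without both hepatoma libraries 1 and 2, and 3 without both 3 and 4.

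Amino acid catabolism held 4 tested members, of which 3 were lower in hepatoma, beside 4.005% of all tested members. All 4 were under control in hepatoma and over control in regenerating liver, so membership fixed their direction. Of all 86 tested genes of that kind 64 were called lower, so the count says nothing particular about this list. Prodh2, which breaks down hydroxyproline, had 1.16, 0.0932, 11.8 and 10.6 RPKM in hepatoma and 97.5, 104, 102 and 98.8 in regenerating liver (log2 difference -4.55 ± 0.87, adjusted p = 0.0288). Nags, which makes the activator of the urea cycle, had 1.05, 0.582, 6.78 and 7.20 against 40.001, 43.1, 47.2 and 36.6 RPKM (adjusted p = 0.0153), and Amt, of the glycine cleavage system, 1.34, 0.477, 7.68 and 4.41 against 32.4, 32.7, 29.7 and 42.7 (adjusted p = 0.0124). All 4 tumours lay under all regenerating libraries in each gene, with tumours 3 and 4 above tumours 1 and 2. Without regenerating library 1 none of the 4 was called, and leaving out any 1 regenerating library put the adjusted p at 0.0993 to 0.103 for Prodh2, 0.0612 to 0.0726 for Nags and 0.0520 to 0.0634 for Amt. Prodh2 also lost its call without hepatoma library 1 (0.0966). Cbs, the entry enzyme of cysteine synthesis, had 1.61, 0.0538, 28.6 and 24.2 against 120.4, 137, 132 and 143 RPKM and was not called (adjusted p = 0.156).

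Further lower genes of the tumour came from detoxification, transport and energy metabolism. Ugt2a3, a glucuronosyltransferase, had 0.401, no reads, 5.12 and 2.91 against 29.02, 49.9, 45.1 and 42.1 RPKM (log2 difference -4.12 ± 0.61), and Car14, a membrane carbonic anhydrase, 0.497, 0.296, 5.14 and 3.88 against 40.01, 39.4, 45.3 and 46.6. Naprt, which makes NAD from nicotinic acid, had 1.55, 2.65, 11.3 and 8.93 against 54.1, 51.98, 56.4 and 69.4 RPKM (adjusted p = 0.00788), and Hdhd3, a hydrolase, 4.37 ± 3.70 against 49.1 ± 5.41. The tumours of libraries 3 and 4 lay above those of 1 and 2 in all 4 genes and under every regenerating library. Adh4, an alcohol dehydrogenase, had 0.347, no reads, 4.20 and 1.96 against 17.3, 17.7, 16.4 and 20.5 RPKM (adjusted p = 0.00877, and 0.0524 without regenerating library 4). Idh1, the cytosolic isocitrate dehydrogenase, had 14.5, 13.1, 33.3 and 23.7 against 116, 137, 134 and 143 RPKM, a log2 difference of -2.68 ± 0.25. Idh3a of the citric acid cycle was higher in the tumour instead, at 53.5 ± 9.35 against 12.4 ± 1.20 RPKM.

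For plasma protein genes the tumours differed widely from each other. All 8 tested plasma protein genes had a lower mean in hepatoma, with a median log2 difference of -4.62, and none was called. C3, the central complement protein, had 44.5, 15.1, 1077 and 657 RPKM in hepatoma libraries 1 to 4 and 4732, 3531, 3798 and 4040 in regenerating libraries 1 to 4 (log2 difference -4.73 ± 1.45, 95% interval -8.25 to -1.21, adjusted p = 0.252). Ambp, the precursor of bikunin, had 30.3, 1.08, 1057 and 792 against 3578, 3022, 2977 and 2505 RPKM, and Tf, transferrin, 225, 69.6, 6594 and 4787 against 21185, 19955, 19915 and 20275. In 7 of the 8 genes every tumour lay under every regenerating library. Apoa4 was the exception, with 1.83, 0.0768, 348 and 328 against 111, 139, 123 and 451 RPKM. At an unadjusted p under 0.05 limma found 7 of the 8 lower, without its trend and robust settings it called 2, and with adjustment over the tested members alone 5. All 8 were called lower without hepatoma libraries 3 and 4, and 7 without libraries 1 and 2.

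The spread lay between hepatoma libraries 1 and 2 on one side and 3 and 4 on the other. Fbp1, the gluconeogenic fructose bisphosphatase, had 5.83, 0.167, 128 and 82.3 RPKM in the tumours and 514, 607, 592 and 707 in regenerating liver. Adh1c, the main liver alcohol dehydrogenase, had 14.1, 0.772, 301 and 216 against 1680, 1904, 1519 and 1622 RPKM, with 441, 483 and 620.1 in control. Acox2, of bile acid side chain oxidation, had 2.17, 0.0109, 34.4 and 28.8 against 159, 206, 225 and 203 RPKM, and Mbl1, a mannose-binding lectin, 2.97, 0.0223, 58.01 and 42.5 against 281, 310.4, 254 and 316. Among the 112 tested members under control in hepatoma, libraries 3 and 4 both lay above libraries 1 and 2 in 99, with a median ratio of 4.56 between the pair means. Among the 1561 members over control in hepatoma, libraries 3 and 4 were both above 1 and 2 in 41, and the median ratio was 0.80.

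The number of genes called lower was 103 without hepatoma libraries 3 and 4 and 93 without libraries 1 and 2, against 67 with all. These pairs were formed after the data were seen and from the same values. Leaving out either pair takes the spread between the pairs out of the test, so the higher counts follow in part from the choice and support nothing further. The sum of the 26 hepatocyte markers split the same libraries in the same order, and its part in these results was not tested. The plot of liver genes by library sets both side by side.

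**Figure D4:**
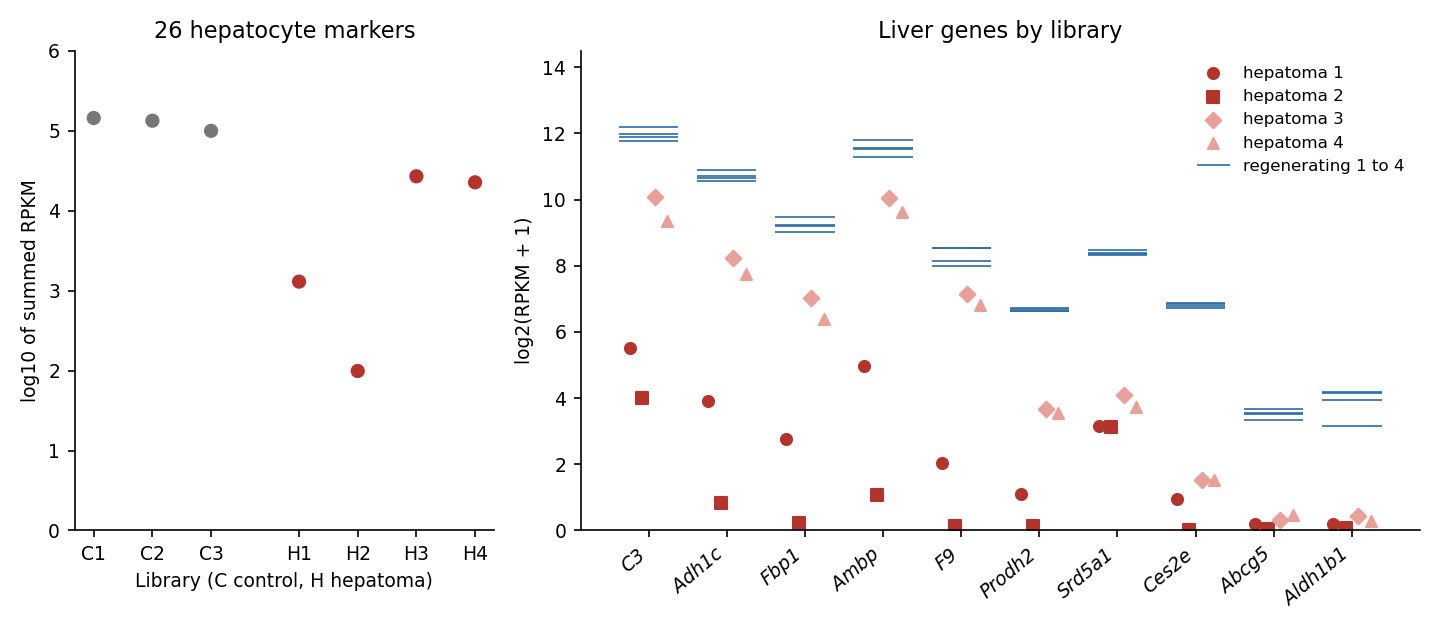
Left, log10 of the summed RPKM of 26 hepatocyte markers listed in the hepatoma table, in 3 control and 4 hepatoma libraries. Right, log2(RPKM + 1) of 10 liver genes in each hepatoma library (symbols) and each regenerating library (lines). Hepatoma libraries 3 and 4 lie above 1 and 2 in both panels, most for C3, Adh1c, Fbp1, Ambp and F9, and least for Abcg5 and Aldh1b1.

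Transcription factors of the hepatocyte went both ways. Of 6 tested members 3 were higher in hepatoma and 2 lower, beside 80.8% and 4.005% of all tested members. The lower ones, Nr1h3 and Rxra, are given above with the sterol transporters, and membership fixed their direction. Gata4 and Gata6, factors of early liver development, had 21.2 ± 4.33 against 8.67 ± 1.20 and 9.76 ± 0.987 against 3.42 ± 0.797 RPKM, and Nr2f2, an orphan receptor of veins and stroma, 24.4 ± 3.57 against 11.9 ± 1.10. The 3 higher calls hold on the deposited scale, since after median centring Gata4 stood at -0.35 and Gata6 at -0.24 without a call, and Nr2f2 was called lower at -0.57. Creb3l3, a liver factor of lipid and iron genes, had 2.62, 0.279, 98.4 and 56.7 against 259.9, 221, 237 and 304 RPKM and was not called.

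Genes that were over control in hepatoma and under it in regenerating liver numbered 23 among those tested, and all but Cisd1 (22) were called higher in hepatoma. Their direction likewise follows from their sides of control. Ifrd1, a transcriptional regulator of tissue repair, had 121, 153, 123 and 118 RPKM in hepatoma, 5.16, 12.1, 10.4 and 7.18 in regenerating liver and 16.6, 18.3 and 19.2 in control liver (log2 difference 3.79 ± 0.22, adjusted p = 2.20e-08). Txnip, the thioredoxin inhibitor that restrains glucose uptake, had 108, 55.1, 83.4 and 77.5 against 10.6, 9.76, 12.8 and 6.09 RPKM, with 16.8, 15.1 and 23.4 in control. Regenerating libraries lay under every control library in both genes. Bcl2l11, the pro-apoptotic protein Bim, had 17.6, 11.9, 7.49 and 15.8 against 0.806, 0.721, 0.797 and 0.781 RPKM, and Cirbp, a cold-inducible RNA-binding protein, 16.1, 12.96, 10.4 and 14.03 against 1.81, 1.84, 2.15 and 1.34. These 4 were named after their values were seen. The group under control in both settings had 26 tested members, of which 2 were lower in hepatoma, beside 4.005% of all tested members. They were Cyp4v3, a fatty acid hydroxylase, at 3.14, 5.36, 25.8 and 16.6 against 65.8, 70.4, 71.3 and 82.8 RPKM (adjusted p = 0.0482), and Wbp1l, at 37.4 ± 13.5 against 80.1 ± 3.11. The Cyp4v3 call was lost without hepatoma library 2 (0.122) or 4 (0.0611) and without any 1 regenerating library (0.149 to 0.183).

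Some abundant genes lay close together in the tumour and the regenerating liver. The 95% interval of the log2 difference lay within 1 of 0 on either side in 234 tested members. Sec61a1, the channel of the endoplasmic reticulum, had 117, 153, 144 and 126 RPKM in hepatoma and 141, 120.5, 138 and 139 in regenerating liver, with 85.5, 90.7 and 120.5 in control (95% interval -0.33 to 0.33). Lman2, a cargo receptor of the secretory pathway, had 155, 186, 144 and 177 against 155, 141, 172 and 181 RPKM, and Copz1, a coat protein of its vesicles, 119, 169, 135 and 131 against 119.9, 126, 121 and 115. The groups overlapped in all 3 genes. Calr, a chaperone of the endoplasmic reticulum, had 1091, 1065, 868 and 1169 against 833, 697, 744 and 774 RPKM without overlap and was not called (adjusted p = 0.196, and 0.0315 without hepatoma library 3). Prdx6, a peroxidase, had 503 ± 63.1 against 333 ± 30.2 RPKM. It was called higher (adjusted p = 0.0357), a call that held without hepatoma library 3 or regenerating library 4 and was lost without hepatoma library 1 (0.0994), 2 (0.0557) or 4 (0.0604) or regenerating library 1 (0.118), 2 (0.161) or 3 (0.202), as well as without both hepatoma libraries 1 and 2 (0.183). After median centring Sec61a1, Lman2, Copz1, Calr and Prdx6 were all called lower, so closeness here holds on the deposited scale. The plot of gene lists shows where each group lies against the median of all members.

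**Figure D5:**
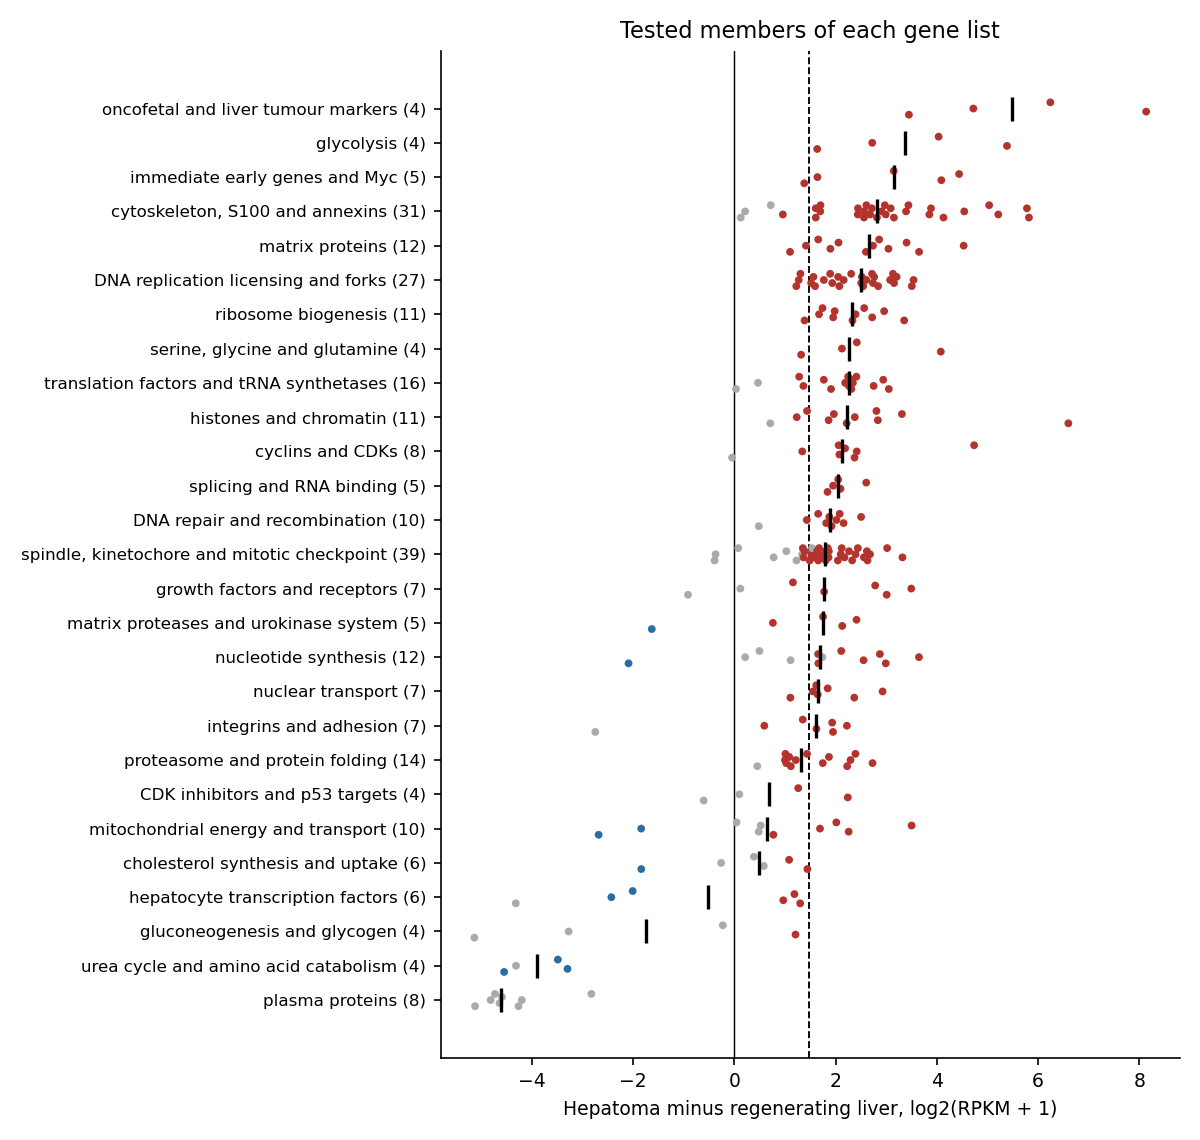
Log2 difference, hepatoma minus regenerating liver, of every tested member (points, coloured red where called higher, blue where called lower and grey where not called) of each list with at least 4 tested members, whose number is in brackets. Short bars are list medians, the solid line is 0 and the dashed line is the median of 1.47 over all tested members, which the tumour marker, glycolysis and cytoskeleton lists exceed and the plasma protein and amino acid lists do not reach.

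The sources used here do not say how reads shared by near-identical genes were counted. The levels of Akr1b8, Tuba1a, Actb, Ces2e, Ugt2a3, Hmga1, Scd2, Adh1c and Mbl1, which belong to families of closely related genes or have processed copies, are therefore uncertain.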

How the data were processed

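RNA-seq values were used from 4 hepatoma, 4 regenerating and 3 control libraries, grouped by the labels. The authors deposited RPKM per gene for each library, with 0.001 standing where a gene had no reads. Beside them stood a log2 ratio of each group to control and a p-value for it. The header of that p-value names the Holm adjustment, and how it was applied is not given. The unit of the levels is taken from the values and labels, and the aligner, genome build, counting of shared reads and the test behind the deposited p-value are not given in the sources used here. Recomputed from the group means, the deposited log2 ratios differed by at most 0.01 in all 1752 members. Read totals were not used, and depth is known only as the ratio of the smallest RPKM steps between libraries, so that no counting interval is given. One blank line of the hepatoma table was left out.

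Tables were joined by GeneID, and the control columns were equal in both for all 1752 members. Symbols, gene types, promoters and positions came from RefSeq (GRCr8), and all 1752 members matched. Levels were set to log2(RPKM + 1) and fitted with limma 3.58.1 (R 4.3.3, trend and robust settings) on the 8 hepatoma and regenerating libraries for genes with at least 1 RPKM in 4 of them. Since tests over listed genes alone would ignore the genes the authors left out, Benjamini-Hochberg adjustment used 23154 rat protein-coding genes as the number of tests. The test was tried on simulated data first. Fold values are ratios of mean RPKM. Alternatives were other pseudocounts, filters and scalings, a replicate block, controls in the fit, adjustment over the tested genes, and leaving out each library. Leaving out hepatoma libraries 1 and 2, or 3 and 4, was added after the data were seen.

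The members and the gene lists were chosen with earlier results of these data known, so counts over lists are descriptions. They cover only the list genes that were members and were tested. The rule for named genes took the 12 largest called differences each way among genes at 10 RPKM or more without overlap, the key genes, the 3 most abundant members of each list and all members of lists with up to 5 tested, the 8 most abundant genes with an interval within 1 of 0, and the 8 largest differences among genes on opposite sides of control. Named after their values were seen were 40 genes: Anxa6, Apoa4, Bcl2l11, Cad, Ccnb2, Ccnd2, Cenpm, Cirbp, Cyp4v3, Dhdds, Dnmt1, Fgfr1, Flna, Foxm1, Gata4, Gata6, Gins1, Idh1, Idh3a, Ifrd1, Igf1r, Igf2, Igfbp2, Impdh1, Incenp, Kif23, Lamc1, Mcm3, Mcm5, Nr2f2, Pbk, Plk1, Pold2, Pole, Polr1a, Rrp9, Shmt1, Txnip, Uhrf1 and Wbp1l. The same holds for uncalled list members given by name alone. Some genes that the rule took are not reported here.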

Additional observations from a re-analysis of the deposited data

Results flagged for a closer look

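Among 368 groups of 4 libraries (184 named genes in hepatoma and in regenerating liver) 24 held 1 library that stood apart from the other 3 by Dixon's test at the 95% level (6.52%), 15 in hepatoma and 9 in regenerating liver. Chance flags about 1 in 20 groups. Hepatoma library 2 was the high one in 13 of the 15. The ubiquitin ligase partner Ube2c had 269 RPKM there (143.9 to 154 in the other tumours), Ung 43.8 (30.2 to 31.0), H2az1 334 (152 to 168), Hmgn2 410.3 (248 to 269), Plk1 59.3 (34.9 to 39.0), Cenpm 26.8 (18.0 to 18.9) and Gins1 17.8 (9.70 to 10.8). The serine synthesis enzyme Psph had 62.6 RPKM there (32.4 to 35.4), Irf1 30.8 (15.1 to 16.7), Eif5a 1227 (792 to 854), Rangap1 64.7 (45.0 to 47.2), Mdh2 521 (349.8 to 367) and Ifrd1 153 (118 to 123). The low tumours were library 4 for Taldo1, at 126 RPKM (178 to 185), and library 3 for Gata6, at 8.30 (10.1 to 10.5).

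In regenerating liver, library 4 stood high for Scarb1 at 71.3 RPKM (53.2 to 55.5), Serpinh1 at 48.6 (25.0 to 27.3), Lamc1 at 6.57 (4.70 to 4.88) and Apoa4 at 451 (111 to 139), and low for G6pc1 at 84.3 (138 to 146). Library 1 stood high for Gadd45g at 11.8 RPKM (3.49 to 4.46) and Pfn1 at 523 (474 to 478), library 3 for Rxra at 74.1 (50.8 to 54.8), and library 2 low for Sec61a1 at 120.5 (138 to 141).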

How the results depend on the processing

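The counts of higher, lower and at least 2-fold different genes stayed within 1.5 times of the reported ones under the other pseudocounts and filters, the replicate block, controls in the fit, adjustment over the tested genes, no trend or robust settings and leaving out 1 library, with these exceptions. They were 445 higher and 482 lower after median centring (1352 and 67 as reported), 495 and 433 with quantile normalization, 103 lower without hepatoma libraries 3 and 4, and, for differences of at least 2-fold (1207), 533 and 536 under the same scalings and 673 with a pseudocount of 10. Leaving out 1 library at a time gave 1302 to 1347 higher, 59 to 75 lower and 1158 to 1234 of at least 2-fold. The causes were not tested. No batch is named in the labels, read depth limits single low genes, and all tumours come from 1 cell line.

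Library numbers did not pair the samples, since same-numbered libraries correlated at -0.06, 0.09, 0.06 and -0.15. With the replicate block 1357 genes were higher, 68 lower and 1219 at least 2-fold, and of 183 named and tested genes 4 lost and 5 gained a call.

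Of the 183, 33 changed sign with a call on either side after median centring, all to a lower tumour level: Tk1 -1.33, Ung -1.06, H2az1 -0.31, Hmgn2 -0.83, Cdkn2c -0.28, Tnfrsf1a -1.42, Socs3 -0.16, Srm -0.22, Pck2 -0.33, Irf1 -1.14, Tap2 -0.51, Bgn -0.13, Adamts1 -0.78, Krt18 -0.19, Calr -1.09, Pdia6 -0.11, Rangap1 -0.43, Atp5f1b -0.77, Mdh2 -1.02, Uqcrc1 -1.50, Prdx6 -0.95, Eng -0.52, Bsg -1.12, Rpn2 -1.30, Lman2 -1.51, Sec61a1 -1.54, Copz1 -1.35, Anxa6 -1.33, Gata4 -0.35, Gata6 -0.24, Gins1 -0.27, Nr2f2 -0.57 and Pole -0.32. With quantile normalization 28 did: Tk1 -1.22, Ung -0.99, H2az1 -0.14, Cdkn2c -0.24, Tnfrsf1a -1.26, Socs3 -0.080, Srm -0.044, Pck2 -0.34, Irf1 -1.11, Tap2 -0.49, Adamts1 -0.59, Pdia6 -0.033, Rangap1 -0.33, Atp5f1b -0.079, Mdh2 -0.89, Uqcrc1 -1.35, Prdx6 -0.83, Eng -0.36, Rpn2 -1.11, Lman2 -1.39, Sec61a1 -1.42, Copz1 -1.21, Anxa6 -1.18, Gata4 -0.34, Gata6 -0.22, Gins1 -0.26, Nr2f2 -0.54 and Pole -0.10. No named gene did under any other setting. Since median centring moved every difference down, the direction of the changes under it was fixed in advance. Of 141 named and called genes 13 lost their call without some 1 library, and 7 of 42 uncalled ones gained one. With a pseudocount of 0.1, 5 lost their call: Ugt2a3, Adh4, Prodh2, Cyp4v3 and Socs3. With a pseudocount of 10 none lost a call and 7 gained one.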

Other observations

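Adhesion and matrix-cutting genes gave further differences. Of 7 tested integrin and adhesion genes 6 were higher in hepatoma and none lower, and of 5 tested proteases 4 were higher and 1 lower, beside 80.8% and 4.005% of all tested members. After median centring 1 adhesion gene (Icam1) was higher and 2 (Itga5 and Cdh2) lower, and 2 proteases (Adam15 and Adam17) were higher and 2 (Mmp19 and Adamts1) lower. Cdh2, the adhesion gene not called with all libraries, lay lower in every tumour than in any regenerating library and was called lower without hepatoma libraries 3 and 4, and also without 1 and 2. Icam1, an adhesion receptor of leukocytes, had 93.8, 107, 66.4 and 90.04 RPKM in hepatoma and 20.03, 16.003, 18.4 and 18.1 in regenerating liver (log2 difference 2.22 ± 0.17, adjusted p = 2.14e-07). Cdh5, the cadherin of endothelium, had 30.9, 42.9, 22.7 and 23.98 against 9.79, 8.29, 6.50 and 4.22 RPKM and is also 1 of the endothelial markers. The 6 listed endothelial markers that were not members summed to 184, 214, 154 and 160.4 RPKM in hepatoma libraries 1 to 4 and 10.1, 9.43 and 25.3 in control, and their part in the value was not tested. The gelatinase Mmp2 had 20.3 ± 4.06 against 5.37 ± 1.31 RPKM, and Mmp19, a protease first found in liver and skin, was the lower one at 9.35, 13.8, 18.1 and 15.3 against 44.7, 38.1, 41.1 and 57.8 (log2 difference -1.63 ± 0.20, adjusted p = 2.59e-05). Adam15 and Adam17, which shed proteins from the cell surface, had 51.3 ± 11.8 against 8.64 ± 0.700 and 24.6 ± 4.14 against 4.80 ± 0.545 RPKM. Every tumour lay above every regenerating library in Icam1, Cdh5, Mmp2, Adam15 and Adam17, and below every one in Mmp19, as in Cdh2.

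Of 10 tested mitochondrial genes 5 were higher in hepatoma and 2 lower, beside 80.8% and 4.005% of all tested members, with a median log2 difference of 0.65 against 1.47. After median centring 2 were higher and 6 lower, and with quantile normalization 3 and 5. Atp5f1b, the catalytic subunit of ATP synthase, had 1734, 1490, 1114 and 1382 RPKM in hepatoma and 772, 878, 886 and 782 in regenerating liver (adjusted p = 0.00874, 0.0515 without regenerating library 1 and 0.0617 without hepatoma libraries 1 and 2), and at -0.77 it was called lower after median centring. Uqcrc1, of respiratory complex III, overlapped at 108, 127, 111 and 100.2 against 107, 109, 105 and 112 RPKM. Acads, of short-chain fatty acid oxidation, was lower at 45.4, 38.96, 51.1 and 56.2 against 94.5, 80.7, 100.4 and 81.2 RPKM (log2 difference -0.89 ± 0.16, adjusted p = 0.00145). Acaa2, the thiolase of the same pathway, had 9.96, 7.04, 141 and 67.3 against 285, 272, 288 and 343 RPKM and was called without hepatoma library 3 (0.0467), the highest tumour.

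Adm, the peptide adrenomedullin, which low oxygen induces, had 105, 51.6, 32.4 and 64.2 against 0.988, 0.896, 1.35 and 1.69 RPKM, a log2 difference of 4.74 ± 0.31. Of the cytokine genes Csf1, the growth factor of macrophages, was higher at 22.7, 22.9, 27.3 and 24.7 against 7.56, 6.66, 6.79 and 8.88 RPKM, while the chemokine Ccl9 had 21.1, 4.81, 422 and 162 against 882, 985, 796 and 931 RPKM and was not called (adjusted p = 0.378). Tap2, the peptide pump of antigen presentation, was higher at 22.1 ± 1.77 against 10.3 ± 0.757 RPKM on the deposited scale and called lower after median centring (-0.51). The endothelial factor Sox7 had 54.4, 69.8, 32.7 and 46.5 against 0.260, 0.312, 0.203 and 0.281 RPKM and the potassium channel Kcnn4 74.6, 80.1, 31.5 and 54.1 against 0.359, 0.392, 0.269 and 0.499, with log2 differences of 5.31 and 5.38.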
